A study of Mus musculus with 4 samples.

Results

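Cytosolic ribosomal protein genes code for the protein part of the ribosome outside mitochondria. They were taken as all gene symbols that start with Rpl or Rps and a number, or with Rplp, without the Rps6k kinases and without pseudogene symbols, if they had at least 1000 UMIs (unique molecular identifiers, each counting 1 captured mRNA) over all barcodes. This gave 82 of the 32285 genes in the files, 49 with large-subunit and 33 with small-subunit symbols, on 19 chromosomes. Matching symbols under the minimum were Rpl3l with 517 UMIs, Rpl39l with 460 and Rpl10l with 1. The members just inside it were Rps27rt with 7857, Rps19bp1 with 17931, Rpl7l1 with 30239, Rpl22l1 with 140837 and Rps27l with 159532. The label holds for 76 members, whereas 6 are copies or partners of ribosomal proteins: Rpl22l1, Rps27l, Rpl36al and Rps27rt are close copies of Rpl22, Rps27, Rpl36a and Rps27, Rpl7l1 is a relative of Rpl7 tied to ribosome assembly, and Rps19bp1 is a nucleolar protein that binds Rps19. The ribosomal proteins Rpsa, Rack1 and Fau do not carry a matching symbol and are treated separately.

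The cells were CD11c+ MHC-II+ cells sorted from B16-F10 melanomas of C57BL/6 mice and profiled by 10x 3′ single-cell RNA sequencing. All mice had received 500000 B16-F10 cells under the skin, and all tumors were injected on day 12 with an adenovirus. The control virus was empty (Ad-Null), Ad-MEM40 carried ISF35, a CD40 ligand chimera, Ad-mIFNB carried mouse interferon beta, and Ad-COMBO was the mixture of ISF35 and mIFNB. Each treatment had 1 library that pooled 3 tumors, so no difference between treatments carries a test, and intervals on single libraries cover counting error only. Mouse age, sex and the time from injection to harvest were not given in the sources used here.

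Ribosomes are built from ribosomal RNA and ribosomal proteins in near equal numbers, and the proteins of the large and small subunits are made in step. Mammalian ribosomal protein mRNAs are short, abundant and stable, and begin with a C and a run of pyrimidines, the 5′ terminal oligopyrimidine (TOP) motif, through which growth signals acting by mTOR control their translation. Dendritic cells raise protein synthesis early in maturation and lower it later, and the level of the mRNA does not by itself report either.

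The start sites of the members on which the results turn are shown first, because the TOP motif is known as a feature of ribosomal protein mRNAs beyond their function. The sequences are from RefSeq (GRCm38.p6), 5′ to 3′ on the transcribed strand, 20 bases before and 10 bases from the listed start, and capitals mark a C followed by at least 4 bases that are each C or T, where such a run opens within 5 bases of the start. Rpl38, Rps28, Rps27 and Rpl35 were among the lowest in Ad-MEM40, Rps27l stood apart in mature dendritic cells, and Rpl31, Rpl22 and Rpl22l1 in plasmacytoid cells.
Rpl38, chr11:114668560-114668589, plus strand: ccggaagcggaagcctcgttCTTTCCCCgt
Rps28, chr17:33824553-33824582, minus strand: tcctgggtaccgcgtgcggtctcgcgagag
Rps27, chr3:90213639-90213668, minus strand: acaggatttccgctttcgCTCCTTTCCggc
Rpl35, chr2:39005122-39005151, minus strand: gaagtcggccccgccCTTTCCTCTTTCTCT
Rps27l, chr9:66946066-66946095, plus strand: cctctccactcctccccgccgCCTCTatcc
Rpl31, chr1:39367831-39367860, plus strand: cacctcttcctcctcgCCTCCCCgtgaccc
Rpl22, chr4:152325706-152325735, plus strand: ccgacttcgccctgggaaaagcaatagctg
Rpl22l1, chr3:28805488-28805517, plus strand: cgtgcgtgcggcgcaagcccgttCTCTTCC

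A start was listed for 62 of the 82 members. Such a run began exactly at the listed start in 14 of them (22.6%) and in 576 of 20205 other genes (2.85%), and it opened within 5 bases in 30 members (48.4%) against 21.6% of the others. Of the matched genes for mitochondrial ribosomal proteins, 0 of 69 had it at the start and 24.6% near it. The search read the transcribed strand only. No capitals in Rps28 and Rpl22 says only that these letters are not in the printed window, and listed starts can lie some bases from the true start.

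Of 11308 barcodes in Ad-Null, 18185 in Ad-MEM40, 2076 in Ad-mIFNB and 954 in Ad-COMBO, the filters left 7954, 13378, 1780 and 666 cells, with a median of 14569, 8958.5, 13438.5 and 11416.5 UMIs per cell. Pairs of libraries shared between 0 and 63 barcodes. Cells were put in a class if most markers of exactly 1 cell type were detected, and no marker is a ribosomal protein gene. This gave 1370, 1819, 304 and 145 conventional type 1 dendritic cell-like (cDC1-like) cells, 1276, 1143, 137 and 21 cDC2-like cells, and 328, 651, 150 and 107 mature DC-like cells, with libraries in the order Ad-Null, Ad-MEM40, Ad-mIFNB, then Ad-COMBO, which is kept throughout. Plasmacytoid (pDC-like) cells were 229, 186, 50 and 21, macrophage-like cells 758, 2512, 115 and 50, and monocyte-like cells 95, 231, 12 and 2. Cells that met no gate (2243, 4711, 813 and 251) were shallower, at a median of 4614 to 8757 UMIs. Cells that met several gates (1601, 1928, 192 and 66) were also left out of the classes. They were deeper, at a median of 15831.5 to 29220 UMIs, and made up 20.1%, 14.4%, 10.8% and 9.9% of kept cells. Every class held its own panel, for example 5347 to 6361 UMIs per 1000000 (CPM) for cDC1 and 6834 to 8558 for mature DC, and the melanoma panel was at most 146 CPM in any of these classes. The cDC2-like cells held 1497 to 2137 CPM of their own panel and more of the monocyte panel, 2367 to 3454 CPM, in every library. The pDC-like cells also held 6062 to 10382 CPM of the monocyte panel and 2891 to 3071 CPM of the cDC1 panel.

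Ribosomal protein transcripts took the largest share of UMIs in the conventional and plasmacytoid dendritic cells, a lower one in mature DC-like cells and the lowest in macrophage-like cells. The 82 genes held 19.1%, 17.6%, 17.3% and 15.99% of UMIs in cDC1-like cells of the 4 libraries in that order. In cDC2-like cells the shares were 19.6%, 18.0%, 18.1% and 17.1%, and in pDC-like cells 19.1%, 17.6%, 17.6% and 15.2%. In all of these the empty virus was highest and the mixture lowest. Mature DC-like cells were at 15.6%, 13.4%, 13.5% and 11.3%, and macrophage-like cells at 13.7%, 12.9%, 12.1% and 10.1%. Monocyte-like cells, with enough cells in the first pair of libraries only, were at 17.05% and 15.26%, and the few melanoma-like cells (47 and 175) at 17.4% and 17.3%. Counting error was small beside these differences, since the widest exact 95% interval (Clopper-Pearson), that of pDC-like cells in Ad-COMBO, ran from 15.01% to 15.31%.

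Mature DC-like cells were below cDC1-like cells in 4 of 4 libraries, with a difference of -4.01 ± 0.53 percentage points (mean ± SD over libraries, n = 4). Macrophage-like cells were below cDC1-like cells at -5.29 ± 0.47 points, also in 4 of 4. Both differences had a two-sided exact permutation p of 0.125, the smallest that 4 pairs can give. Both classes were shallower than cDC1-like cells in every library. Median UMIs were 11354.5, 6705, 10384 and 11203 in mature DC-like and 11924, 8846, 12505 and 11062 in macrophage-like cells. In cDC1-like cells they were 18990, 11816, 19112.5 and 19215. Among cells of 5000 to 15000 UMIs the mature DC-like difference was -3.05 points, and the part of depth was not tested further. The cDC2-like cells were higher than cDC1-like cells in 4 of 4 libraries by 0.716 ± 0.307 points (exact permutation p = 0.125), and pDC-like cells differed by -0.119 ± 0.501 points, higher in 2 libraries and lower in 2 (exact permutation p = 0.875). Mature DC-like cells also carried the most Malat1, a nuclear RNA whose share is high in damaged cells or bare nuclei, at 3.64% to 5.62% of UMIs against 2.61% to 3.69% in cDC1-like cells. Among cells with at most 2% Malat1, a limit chosen after seeing the data, mature DC-like cells were at -1.82 points from cDC1-like cells, and the cDC2-like difference turned to -0.335 points, both over the 3 libraries with enough such cells.

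**Figure D1:**
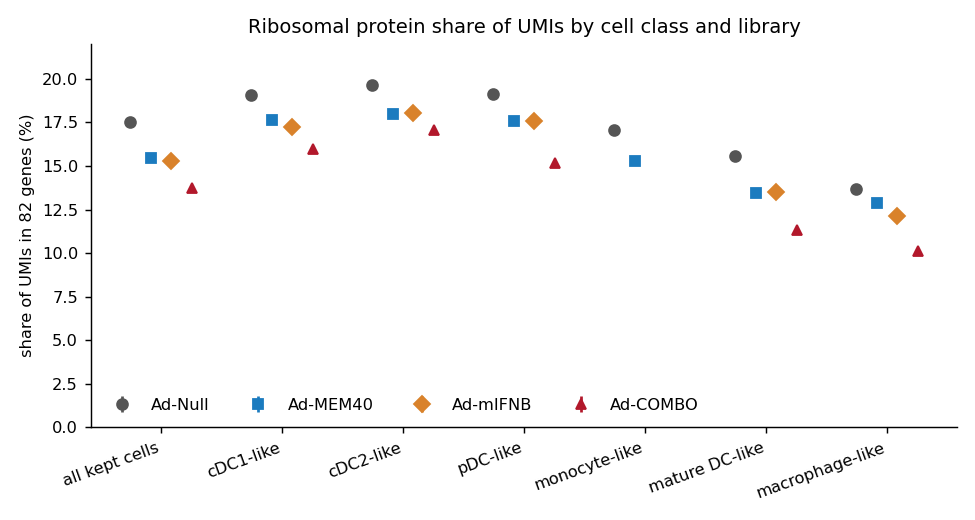
Share of UMIs in the 82 genes (%, vertical axis) for all kept cells and 6 gated classes (horizontal axis), 1 point per library, with Ad-COMBO left out of the monocyte-like class and Ad-mIFNB too for want of cells; exact 95% intervals are smaller than the points. In each class Ad-Null sits highest, and mature DC-like (11.3% to 15.6%) and macrophage-like cells (10.1% to 13.7%) sit below cDC1-like cells (15.99% to 19.1%).

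Over all kept cells the share was 17.5% in Ad-Null, 15.4% in Ad-MEM40, 15.3% in Ad-mIFNB and 13.7% in Ad-COMBO. The treated libraries differed from Ad-Null by -2.09, -2.22 and -3.804 percentage points, and in 16 of 16 comparisons of a gated class with Ad-Null the treated library was lower. Interferon-response transcripts, which filled 0.650%, 0.704%, 1.78% and 1.80% of UMIs, also differed between the libraries. Without them in the denominator Ad-mIFNB differed by -2.05 points and Ad-COMBO by -3.67. Malat1 was at 2.23%, 2.19%, 2.57% and 3.89% over all cells, highest in Ad-COMBO in every class.

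Within a library, the share was higher in deeper cells and lower in cells with more Malat1. Over the 20 groups of class and library with the 5 classes present in all libraries, Spearman's rho across cells between a cell's share and its UMIs was 0.056 to 0.586, and with its Malat1 share -0.279 to -0.781. These are relations across cells of the same libraries, and share and Malat1 are parts of 1 total. Cells of 5000 to 10000 UMIs were at 14.02%, 15.2%, 12.5% and 10.2% in the 4 libraries in their usual order, so that Ad-MEM40 stood above Ad-Null there. It did so also at 2000 to 5000 UMIs, with 10.4% against 9.52%. Those of 15000 to 20000 UMIs were at 18.5%, 15.8%, 15.6% and 13.9%, with Ad-Null highest. Restricted to cells of 5000 to 15000 UMIs, the treated library was lower in 11 of 14 comparisons, and Ad-MEM40 differed by -0.662 points over all cells. In cDC1-like cells of that range the direction turned, to 17.9% in Ad-MEM40 and 16.7% in Ad-mIFNB against 15.8% in Ad-Null, while Ad-COMBO was below it at 13.3%. The Ad-MEM40 cells were the shallowest, and library depth and treatment cannot be told apart with 1 library each.

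**Figure D2:**
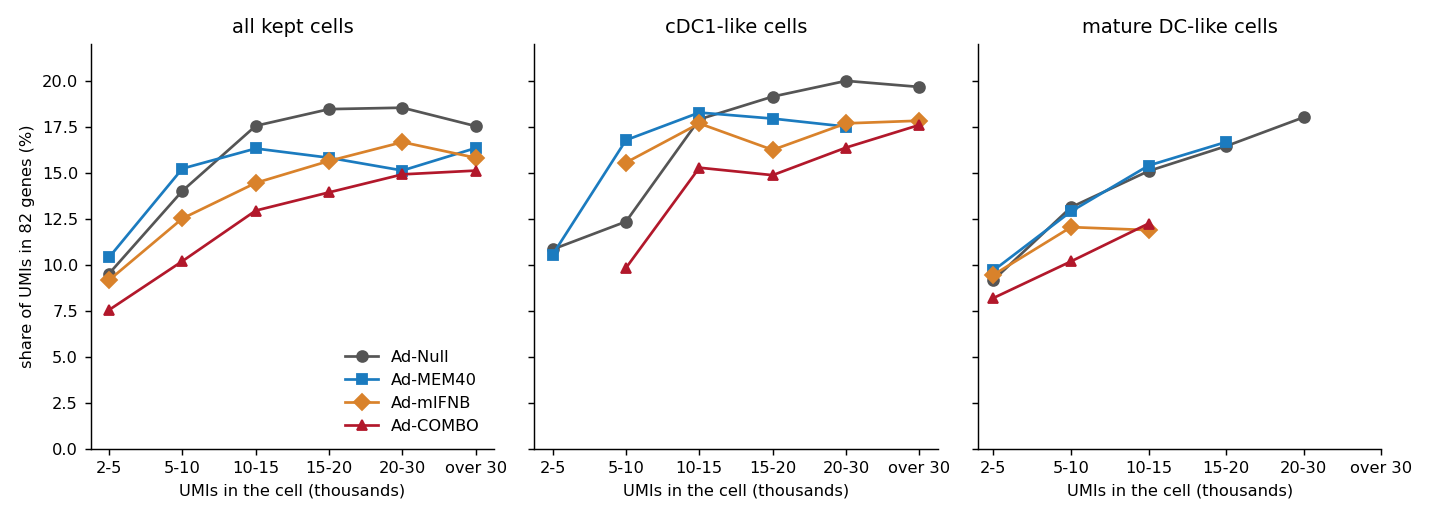
Share of UMIs in the 82 genes (%, vertical axis) by the number of UMIs in the cell (in units of 1000, horizontal axis) for all kept, cDC1-like and mature DC-like cells, with 1 line per library and bins of at least 20 cells. Among all kept cells the lines start at 7.55% to 10.4% for 2000 to 5000 UMIs, and Ad-COMBO is lowest in every bin. For all kept cells Ad-MEM40 is above Ad-Null in the bins under 10000 UMIs and below it in the deeper bins.

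The Ad-MEM40 library was low in short ribosomal protein genes, and little different from Ad-Null in long ones. Rpl38 (chromosome 11, 114668524 to 114672331), a 210-base coding sequence of the large subunit, had 2567 CPM in Ad-Null, 1528 in Ad-MEM40, 1916 in Ad-mIFNB and 1865 in Ad-COMBO. Rps28 (chromosome 17, 33819027 to 33824562), a small-subunit protein of 207 coding bases, had 2967, 1813, 2153 and 2223 CPM. Rpl39 (chromosome X, 37082520 to 37085402), which lines the exit tunnel for new peptides and has 153 coding bases, had 2902, 1808, 2288 and 2265 CPM. For these genes Ad-Null was highest and Ad-MEM40 lowest. Their log2 ratios to Ad-Null, with 5 CPM added to both sides, were -0.75, -0.71 and -0.68 in Ad-MEM40. The same order held for Rps27 (-0.72), Rps29 (-0.62) and Rps21 (-0.62) of the small subunit. Rpl35 (-0.64) and Rpl36a (-0.61) of the large one were also low in Ad-MEM40, but lowest in Ad-COMBO. Counting intervals were narrow, 1522 to 1535 CPM for Rpl38 in Ad-MEM40 and 2559 to 2576 in Ad-Null.

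At the other end were Rps14 (0.09), Rps9 (0.08), Rpl3 (0.05), Rpl15 (0.05) and Rpl7 (0.05). Rpl3, the large-subunit protein nearest the site where peptide bonds form, had 1501 CPM in Ad-Null and 1558 in Ad-MEM40. Of the 82 members, 9 were lower by at least 1.5-fold in Ad-MEM40, against 0.354% of all genes tested, and 0 were higher, against 0.824%. All 9 have fewer than 400 coding bases. At 1.2-fold, 20 were lower (2.36% of all genes) and 0 higher (6.01%).

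The 29 members under 400 coding bases, a limit set after the pattern was seen, had a median log2 ratio of -0.366 in Ad-MEM40, with 28 below 0. The other 53 had a median of -0.069, with 38 below 0. Short members together filled 4.94% of UMIs in Ad-MEM40 against 6.52% in Ad-Null, and longer members 10.49% against 10.998%. Spearman's rho between coding length and the ratio was 0.693 across the 82 genes, which are not independent samples. Among other genes of at least 50 CPM, 310 short ones had a median of 0.029 and 2606 longer ones 0.036. Subunit made no such split, with medians of -0.114 for the small and -0.128 for the large subunit. In cells of 5000 to 15000 UMIs the short members were still at -0.242 and the longer ones at 0.066.

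**Figure D3:**
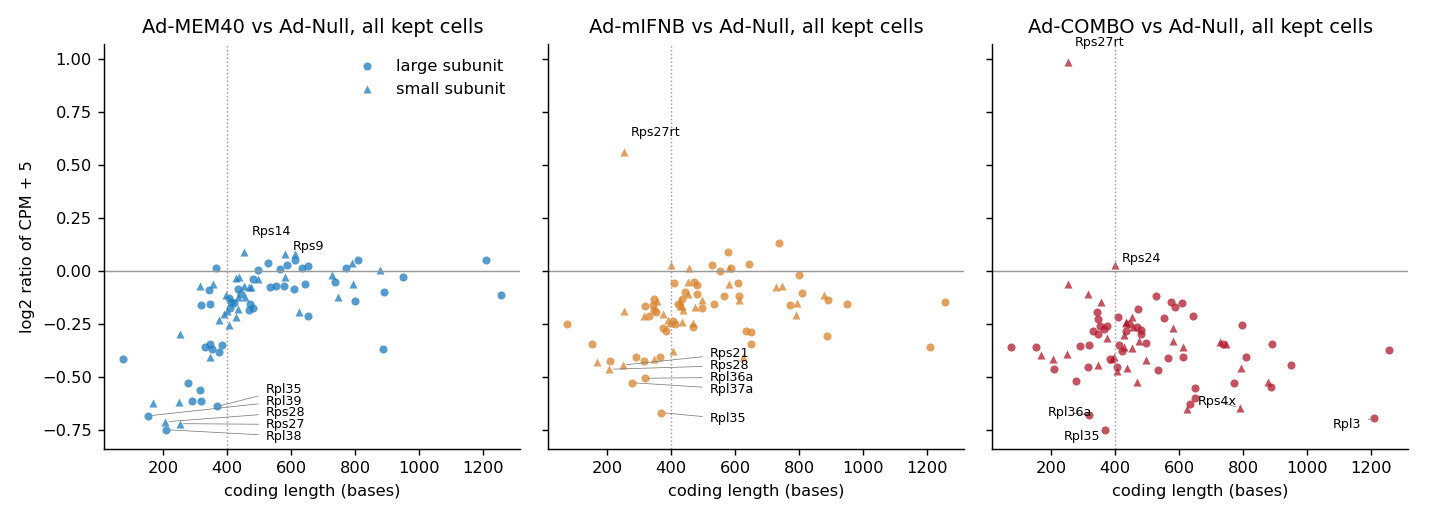
Log2 ratio of CPM + 5 in each treated library to Ad-Null over all kept cells (vertical axis) against coding length in bases (horizontal axis), 1 point per gene, circles for the large and triangles for the small subunit, with a dotted line at 400 bases. In the Ad-MEM40 panel the points under 400 bases reach down to -0.75 and the longer ones lie near 0 (median -0.069), whereas in the Ad-COMBO panel both groups lie near -0.35.

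Each class showed it. Across cDC1-, cDC2-, mature DC-, pDC-, macrophage- and monocyte-like cells, short members had medians from -0.354 to -0.253 in Ad-MEM40 and longer ones from -0.094 to 0.047. Rpl38 ranged from -0.72 to -0.66 and Rps28 from -0.77 to -0.61 over these 6 classes, and both were lower by at least 1.5-fold in all 6. Members lower by that fold were 6 in cDC1-like cells (0.377% of all genes there), 6 in cDC2-like (0.329%), 9 in mature DC-like (1.43%), 6 in pDC-like (4.26%), 2 in macrophage-like (0.374%) and 8 in monocyte-like cells (5.93%). Higher were 0 in each, against 0.23%, 0.524%, 2.6%, 2.97%, 0.692% and 5.66% of all genes. Rps27, Rps29 and Rpl39 were in 5 of 6. Rpl41, the shortest member at 75 coding bases, was milder, at -0.50 to -0.18. Below 0 in all 6 classes were 40 members, of which 24 were short, and those above 0 in all 6 included Rpl18, Rpl19, Rps9 and Rps14. How many of all genes lay below 0 in all 6 was not counted, so these counts are descriptions. All classes of a library share its preparation and depth, so they are not 6 independent observations, and the part of depth, lowest in Ad-MEM40, was tested only by the range of 5000 to 15000 UMIs.

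In Ad-mIFNB short members were also lower than longer ones, by less. The median log2 ratio of the 82 members was -0.164, with 72 below 0, short members at -0.251 and longer ones at -0.137. Other genes of at least 50 CPM showed a similar gap there, with 315 short ones at -0.118 and 2651 longer ones at 0.010. Rpl35, at the peptide exit site, was lowest at -0.67, from 1923 CPM in Ad-Null to 1210, and was the only member lower by at least 1.5-fold (1.38% of all genes tested). Higher by that fold were 0 (2.68% of all genes). Rps27rt, a copy of Rps27 with few counts, had 33 CPM against 21, a log2 ratio of 0.56. At 1.2-fold, 21 were lower (8.54%) and 1 higher (8.45%). Next lowest were Rpl37a (-0.53), Rpl36a (-0.50) and Rps28 (-0.46). Rpl9 was above Ad-Null in all 5 classes compared, by 0.03 to 0.34.

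In Ad-COMBO the whole set was low, the short and the longer members alike. The median was -0.346, with 80 of 82 below 0, and both short (-0.353) and longer members (-0.343) took part. The median of all genes tested was -0.002, and that of 3165 other genes of at least 50 CPM was -0.016. Of those with a coding length, 314 short ones were at -0.273, of which 48 were lower by at least 1.5-fold, and 2783 longer ones at 0.010, so other short genes were nearly as low as the short members. Lower by at least 1.5-fold were 7 members (3.27% of all genes), and 1, Rps27rt, was higher (6.2%). At 1.2-fold, 60 were lower (15.2%) and 1 higher (16.9%). Rpl35 had 1923 CPM in Ad-Null and 1141 in Ad-COMBO (-0.75), and Rpl36a 907 and 565 (-0.68). Longer genes among the lowest were Rpl3 with 1501 and 927 CPM (-0.69), Rps4x with 2191 and 1400 (-0.64) and Rpl13 with 4180 and 2708 (-0.63). Rps24 (0.03) and Rps27 (-0.06) differed little.

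The Ad-COMBO difference depended on which cells entered. With cells of at most 2% Malat1 its median was -0.198 and 0 members passed 1.5-fold, and with cells of 5000 to 15000 UMIs the median was -0.472 and 21 passed. All genes were not counted again under these limits. Among single classes it was largest in mature DC-like cells, with a median of -0.509 and 25 members lower (8.93% of all genes tested there) and 1 higher (11.3%). Rpl10a of the large subunit had 1004 CPM in Ad-Null, 946 in Ad-MEM40, 756 in Ad-mIFNB and 510 in Ad-COMBO. Rpl3 had 1000, 952, 756 and 519 CPM, and Rps4x 1876, 1818, 1490 and 986. For these 3 genes the libraries stood in the same order. Rps27l (-0.05), Rpl24 (-0.03) and Rps24 (-0.07) were close to Ad-Null. The median was -0.396 in macrophage-like cells, with 8 members lower (9.56%) and 0 higher (11.8%), and -0.252 in cDC1-like cells, with 2 lower (5.36%) and 1 higher (6.73%). Across the 3 classes 79 members were below 0 in all, a count not made over all genes, and Rpl35 was lower by 1.5-fold in all. Malat1 was also highest in Ad-COMBO, at 5.62% of UMIs in mature DC-like cells against 4.03% in Ad-Null, and its part in these values was not tested.

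Among ribosomal proteins outside the symbol rule, Rpsa (-0.08, -0.19 and -0.49 in Ad-MEM40, Ad-mIFNB and Ad-COMBO), Rack1 (0.03, -0.19 and -0.52) and Fau (-0.20, -0.08 and -0.16) lay within the range of the members.

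Differences between cell classes could be tested, because each library held every class. Summed UMIs per class and library were compared with edgeR's quasi-likelihood test, with the library as a block and Benjamini-Hochberg adjustment over 11463 genes. The 4 libraries are the samples here. With the library as a block, p-values measure how much class differences vary between these libraries, each a pool of 3 tumors under another virus. That spread was estimated from all class sums together. These contrasts were not run again in a range of depth, so the part of depth in them was not tested.

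In mature DC-like cells, which express Ccr7 and have left the antigen-sampling state, most ribosomal protein genes were lower than in cDC1-like cells and a few were clearly higher. Of the 82 members 53 were lower (33.2% of all genes) and 5 higher (30.2%), with a median log2 fold change of -0.294 against -0.035 for all genes tested. Both subunits took part, with 30 of 49 large-subunit and 23 of 33 small-subunit members lower. The scaling moves these values: with library totals in place of TMM (trimmed mean of M values) 69 were lower and 3 higher, at a median of -0.415 against -0.167 for all genes. Of all 11463 genes, 4456 were lower and 2984 higher on that scale. With DESeq2's size factors 50 were lower and 7 higher, at -0.207 against 0.209, beside 3377 and 4003 of 14808 genes. Without the library block 27 were lower and 2 higher, beside 3314 and 3016 of 11463 genes. Longer members were further down, with a median of -0.362 against -0.190 for short ones. Of 13 mitochondrial transcripts 10 were lower too, as were 5 of 10 dissociation genes, with 1 higher, and their part was not tested.

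The lowest was Rpl36al (chromosome 12, 69182731 to 69184083), the autosomal copy of the X-linked Rpl36a. It had 532, 449, 461 and 349 CPM in mature DC-like and 1048, 984, 962 and 938 CPM in cDC1-like cells. The classes did not overlap, and the log2 fold change was -1.03 ± 0.09 (SE, n = 4 libraries, edgeR adjusted p = 1.3e-09). Rpl3 fell by 0.91 on the log2 scale, Rpl14 by 0.85, Rpl10a by 0.80, Rpl4 by 0.73, Rpl5 by 0.70 and Rps6 by 0.66, each lower in 4 of 4 libraries. Rpl5 carries 5S ribosomal RNA into the ribosome, and Rps6 is the classical substrate of the S6 kinases.

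Rps27l (chromosome 9, 66946086 to 66949516), a p53 target that codes for a close copy of Rps27, went the other way. Mature DC-like cells had 899, 931, 763 and 869 CPM, cDC1-like cells 418, 371, 348 and 257, macrophage-like cells 407, 382, 381 and 361, and pDC-like cells 187, 203, 165 and 101. The mature cells lay above every other class in every library. The log2 fold change against cDC1-like cells was 1.45 ± 0.11 (SE, n = 4, edgeR adjusted p = 3.6e-11), and against macrophage-like cells it was 1.39 ± 0.11 (adjusted p = 8.6e-11). In counts of UMIs, which are not scaled by length, mature DC-like cells held 34.9 to 56.1 Rps27l per 100 Rps27 and cDC1-like cells 12.7 to 26.5.

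Rps19, the small-subunit protein mutated in many cases of Diamond-Blackfan anaemia, had 3371, 3157, 3062 and 3116 CPM in mature DC-like and 2734, 2496, 2491 and 2208 CPM in cDC1-like cells. It rose by 0.48 ± 0.09 (SE, n = 4, edgeR adjusted p = 4.0e-05), higher in 4 of 4 libraries. Rps27 had 2574, 1660, 2101 and 2245 CPM against 2157, 1398, 1852 and 2028, a change of 0.33 ± 0.09 (adjusted p = 0.0034) that did not pass without Ad-Null (adjusted p = 0.073), without the filter on low counts (0.051) or without the library block (0.17). The calls of Rps27rt (0.35 ± 0.14, adjusted p = 0.031) and Rpl24 (0.20 ± 0.08, adjusted p = 0.025) were likewise lost without Ad-Null (0.20 and 0.14) and under 4 other settings each.

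**Figure D4:**
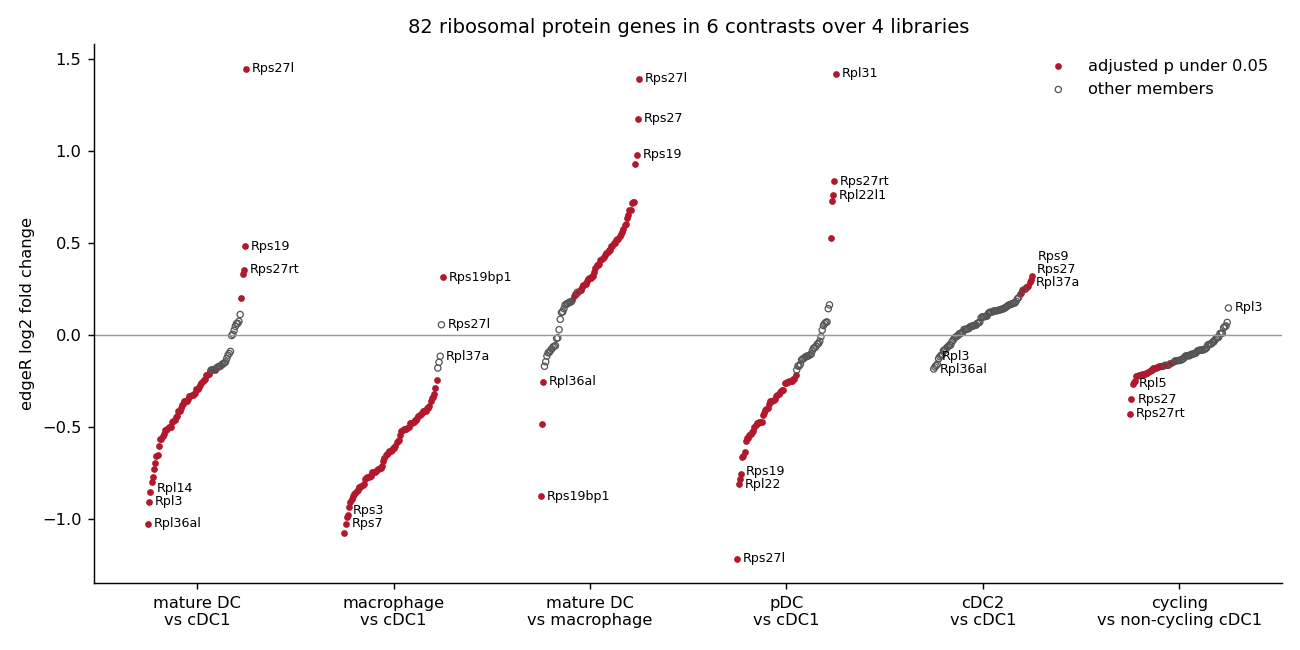
Log2 fold change from edgeR (vertical axis) of each of the 82 genes in 6 contrasts between cell classes over 4 libraries (horizontal axis, genes sorted within a contrast); filled points have an adjusted p under 0.05. Rps27l at 1.45 and 1.39 stands above the other members in both mature DC contrasts and at -1.22 below them in the pDC contrast, where Rpl31 reaches 1.42.

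Macrophage-like cells had lower levels of nearly the whole set than cDC1-like cells. Lower were 77 of 82 members (31.3% of all genes) and higher 1 (30.4%), with a median of -0.614 against -0.014 for all genes. Among the lowest were the small-subunit proteins Rps7 (-1.03 ± 0.09, edgeR adjusted p = 1.8e-09), Rps3 (-0.99) and Rps6 (-0.98). Rps7 had 1292, 1473, 1425 and 983 CPM in macrophage-like and 2515, 2597, 2516 and 2205 in cDC1-like cells, with no overlap. The exception was Rps19bp1, which is no ribosome component, at 56, 50, 53 and 59 CPM against 47, 42, 36 and 33 (0.31 ± 0.11, adjusted p = 0.014), a call lost without Ad-Null (0.0502), without Ad-mIFNB (0.0652) or without the low-count filter (0.13). Rps27l did not pass the test (0.05 ± 0.11, adjusted p = 0.68). Of 13 mitochondrial transcripts 9 were higher in macrophage-like cells (median 0.32), and of 10 dissociation genes 6 were lower (-0.47). Their part in these values was not tested.

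Set against each other, mature DC-like cells were the higher of these low classes. Higher than in macrophage-like cells were 55 members (28.9% of all genes) and lower 3 (34.8%), with a median of 0.307 against -0.087. With library totals as the scale it was 37 higher and 15 lower, at a median of 0.098 against -0.292, so the split depends on the scaling while the position above the median gene does not. Of all 11463 genes 2587 were higher and 4973 lower on that scale. Beside Rps27l, Rps27 (1.17 ± 0.09, adjusted p = 1.6e-10) and Rps19 (0.98 ± 0.09, adjusted p = 1.2e-09) rose most. Rps19bp1 (-0.88) and Rpl36al (-0.25) were among those that fell. The Rpl36al call was lost without Ad-MEM40 (edgeR adjusted p = 0.22), without Ad-mIFNB (0.088) or without the library block (0.16).

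The pDC-like cells differed from cDC1-like cells in single members more than in the total. Rpl31 (chromosome 1, 39367842 to 39371911), a large-subunit protein near the exit tunnel, had 2638, 2230, 2442 and 2021 CPM in pDC-like cells and 904, 680, 732 and 747 in cDC1-like cells. The fold change was 1.42 ± 0.09 (SE, n = 4, edgeR adjusted p = 3.1e-12), the highest among the members, and every pDC-like value lay above every cDC1-like one. Rpl22 (chromosome 4, 152325742 to 152334071), which also binds Epstein-Barr virus RNA and is needed for T cell development, had 1134, 974, 931 and 805 CPM against 1666, 1400, 1457 and 1350, a change of -0.81 ± 0.08 (adjusted p = 1.5e-08). Its copy Rpl22l1 had 584, 565, 561 and 671 CPM against 328, 318, 265 and 311 and rose by 0.76 ± 0.10 (adjusted p = 1.1e-06). Thus the pair moved in opposite directions, with 51.5 to 83.3 UMIs of Rpl22l1 per 100 of Rpl22 in pDC-like cells and 18.2 to 23.0 in cDC1-like cells.

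The pair of Rps27 and Rps27l also split in pDC-like cells, opposite to mature DC-like cells. Rps27 had 4133, 2609, 3631 and 3721 CPM in pDC-like cells, above every other class of the same library, and rose by 0.73 ± 0.09 (adjusted p = 5.1e-07). Rps27l fell by 1.22 ± 0.12 (adjusted p = 6.2e-09), to 2.70 to 7.77 UMIs per 100 of Rps27. Rps24 had 5795, 5083, 7738 and 8319 CPM against 3966, 3730, 4265 and 4197 (0.52 ± 0.10, adjusted p = 7.7e-05), and Rps19 fell by 0.78 ± 0.09 (adjusted p = 7.3e-08). Of all members 49 were lower (30.8% of all genes) and 5 higher (24.9%), at a median of -0.259 against -0.082. With library totals as the scale 27 were lower and 13 higher, at a median of -0.065 against 0.086, and without the library block 24 were lower. Of all 11463 genes 2798 were lower and 3531 higher with library totals, and 3088 were lower without the block. These cells also held monocyte and cDC1 markers, 12 of 13 mitochondrial transcripts were higher and 7 of 10 dissociation genes lower in them, and the part of these in the values was not tested.

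**Figure D5:**
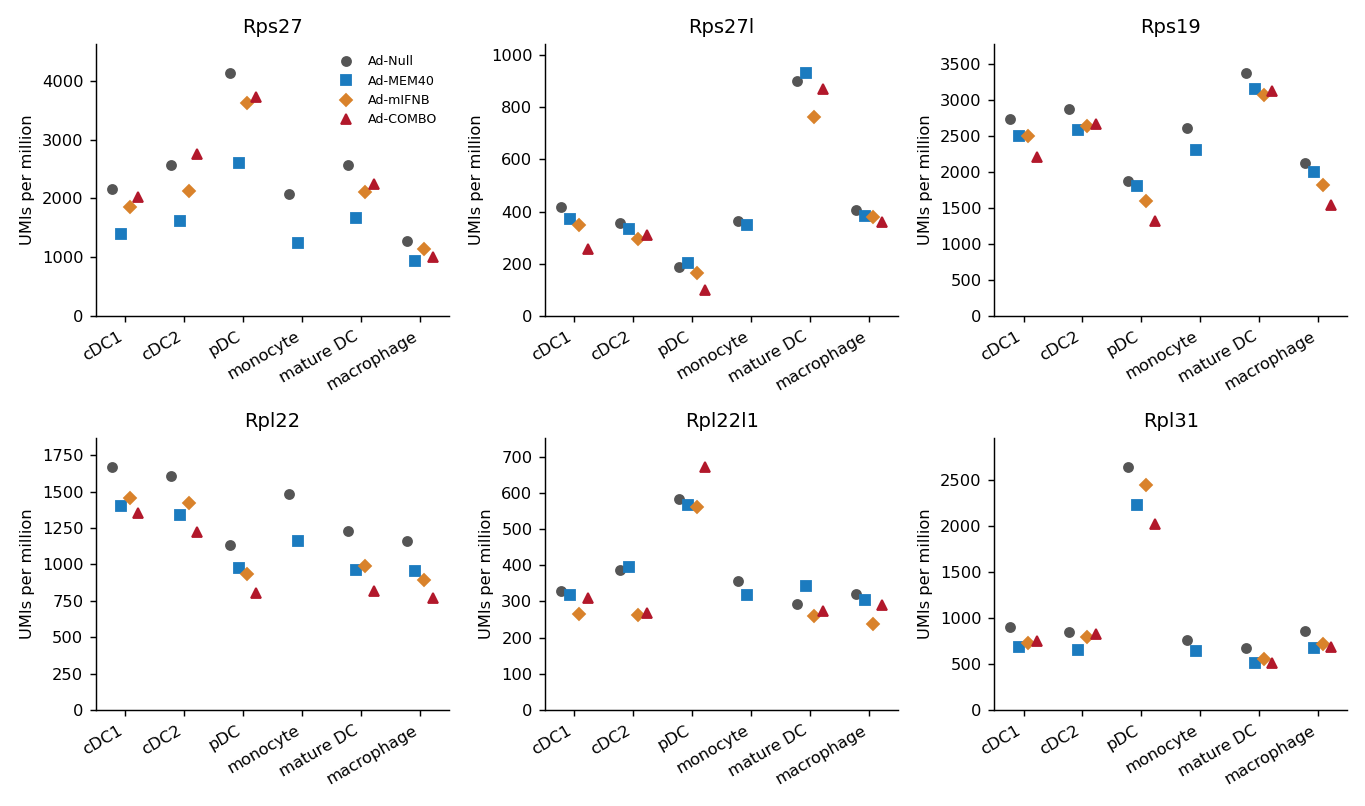
Level of 6 members in CPM (vertical axes, from 0) in 6 gated classes (horizontal axis), 1 point per library. Rps27l is highest in mature DC-like cells (763 to 931) and lowest in pDC-like cells (101 to 203), where Rps27 (2609 to 4133), Rpl22l1 (561 to 671) and Rpl31 (2021 to 2638) are highest, and Rps19 (1317 to 1870) lowest, within each library.

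Between the 2 conventional subsets the set hardly differed. Higher in cDC2-like cells were 10 members (21.9% of all genes) and lower 0 (20.9%), with a median of 0.098, and the largest were Rps9 (0.32 ± 0.09, edgeR adjusted p = 0.0043), Rps27 (0.30 ± 0.09) and Rpl37a (0.29 ± 0.08). Each of these calls was lost without the library block (edgeR adjusted p = 0.15, 0.28 and 0.31). Those of Rps27 and Rpl37a were also lost without Ad-Null (0.10 and 0.073), and that of Rps27 with a stricter gate (0.093). At an unadjusted p under 0.05 there were 17 members, a count not made over all genes. DESeq2 called 27 higher and 1 lower, library totals as the scale 10 and 2, and a stricter gate 2 and 2. Without Ad-Null, Ad-MEM40 or Ad-mIFNB, 1 to 4 were higher. The counts under these other settings stand without the share of all genes called. They compare settings only and do not show that the members exceed other genes. Of 13 mitochondrial transcripts 8 were lower in cDC2-like cells, and the part of these and of the monocyte markers was not tested.

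Cycling cDC1-like cells had slightly lower levels than the other cDC1-like cells. Cycling meant at least 6 of 10 markers such as Mki67, Top2a and Cenpf, mostly of G2 phase and mitosis. Their share was 18.4% against 19.4% in Ad-Null, 16.7% against 18.1% in Ad-MEM40, 16.9% against 17.4% in Ad-mIFNB and 13.9% against 16.5% in Ad-COMBO, lower in 4 of 4. Cycling cells were deeper, for example at a median of 28297 against 17268 UMIs in Ad-Null. Lower were 35 members (13.9% of 11084 genes) and higher 0 (16.3%), with a median of -0.139. An unadjusted p under 0.05 was found for 49 members, a count not made over all genes. DESeq2 called 43 lower and 0 higher, beside 988 and 1144 of 11029 genes. Rps27 fell by 0.35 ± 0.06 (edgeR adjusted p = 0.00011), Rpl5 by 0.27 and Rpl27 by 0.26, while Rpl3 was at 0.15 (adjusted p = 0.073). The count of lower members was 5 without Ad-Null and 6 without Ad-MEM40, the libraries with the most such cells (371 and 446). Of all genes, 551 of 10005 and 687 of 10015 were then lower. In macrophage-like cells the share went the other way, 14.6% in cycling against 13.4% in other cells of Ad-Null and 13.9% against 12.7% in Ad-MEM40, which was not tested.

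The stalk that binds elongation factors is made of Rplp0, Rplp1 and Rplp2. In mature DC-like cells Rplp0 fell by 0.33 ± 0.08 (adjusted p = 0.00083) and Rplp1 by 0.51 ± 0.09 (adjusted p = 1.7e-05), while Rplp2 was at 0.07 ± 0.08 (adjusted p = 0.46), although its CPM, with no TMM, was lower in 4 of 4 libraries. The Rplp0 call was lost without the library block (edgeR adjusted p = 0.13). In macrophage-like cells all 3 fell, Rplp0 most (-0.89, -0.41 and -0.43). Over all cells Rplp0 had 2209, 2164, 1983 and 1626 CPM, Rplp1 3396, 3191, 3041 and 2968, and Rplp2 1942, 1528, 1707 and 1661. Rplp0 and Rplp1 were thus near Ad-Null in Ad-MEM40, where Rplp2 was lower.

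Related gene lists did not all move with the ribosomal proteins. Ribosome biogenesis factors, which make and assemble ribosomal RNA in the nucleolus, were lower in mature DC-like than cDC1-like cells for 28 of 30 genes and higher for 0, at a median of -1.08. They were lower also than in macrophage-like cells (25 of 30 lower and 2 higher, median -0.81), where the ribosomal proteins stood higher. Mitochondrial ribosomal proteins were lower for 55 of 78 and higher for 5 (median -0.54), and translation initiation factors for 15 of 22 and 5 (-0.36). Elongation factors and other TOP mRNAs were lower for 8 of 14 and higher for 1 (-0.21), and in macrophage-like cells for 12 of 14 and 0 (-0.53). Against Ad-Null, biogenesis factors had medians of -0.08, -0.22 and -0.43 in Ad-MEM40, Ad-mIFNB and Ad-COMBO, with 7 of 30 lower by at least 1.5-fold in Ad-COMBO, among them Nop58 (-0.78) and Nhp2 (-0.75). Type I interferon genes were higher by 1.5-fold for 1, 31 and 31 of 32.

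The levels of the members followed each other over the classes and libraries. Over 22 sums of a class in a library, Pearson's r between a member and the summed members had a median of 0.85, and 28 of 80 members with at least 50 CPM had at least 0.9. The summed members include the gene itself, which raises its r. The median r of other genes of at least 50 CPM was 0.08. Lowest among the members were Rps27l (-0.41), Rps19 (0.15), Rpl22l1 (0.41) and Rpl31 (0.44), the genes with class patterns of their own. Among 2879 other genes of at least 50 CPM the most alike were Gng10 (0.933), Naca (0.919), Map4k1 (0.916), Fdps (0.913), Coro1a (0.913), Eif3e (0.910), Anp32e (0.904), Atp5c1 (0.901), Eef1d (0.891) and Cct4 (0.889). The sums share 4 libraries and their depth, so these values are descriptions.

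By UMIs at the 3′ end, the 10 most counted members held 21.6% of all member UMIs. Rps29 led with 5635, 3661, 4190 and 4282 CPM over all cells of the 4 libraries, and Rpl13 had 4180, 4223, 3440 and 2708. Rps29 was lowest in Ad-MEM40, and Rpl13 in Ad-COMBO, as among the short and the longer members. Reads of Rps27 and Rps27rt, Rpl36a and Rpl36al, and members with processed pseudogenes can be shared between copies, so the split within such pairs is uncertain.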

How the data were processed

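The deposited count matrices hold UMI counts per gene and barcode, made by the authors with Cell Ranger (3.0 and Seurat 4.0 on mm10 per the submitters' processing notes, 6.0.0 per the file headers). Cells with at least 500 genes and at most 10% mitochondrial UMIs were kept. Scrublet's automatic threshold did not work in the large libraries, so each lost its expected share of highest scores, 0.8% per 1000 barcodes. A class needed more than 50% of 1 panel's markers and no other panel, so the names rest on markers, not on clusters. Ratios to Ad-Null use summed CPM plus 5 and a fold of 1.5, over genes with at least 20 UMIs. Treatments had 1 library each and were not tested.

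Class sums of at least 20 cells were tested with edgeR 4.0.16 in R 4.3.3 (TMM, filterByExpr, library block, adjusted p under 0.05 over all genes), checked on simulated counts. DESeq2 1.42.0, other filters, gates, scales and leaving out each library were alternatives. Python 3.11.15, scanpy 1.11.5 and scipy 1.17.1 were used. Coordinates are GRCm38 (GENCODE M21), and start sites RefSeq GRCm38.p6. Named were the 8 highest and 8 lowest members per comparison, stalk proteins, copies with parents, the 10 most counted members, and 2 at either end of each list. Members and lists were chosen with earlier results of these data known. Panels are defined by named markers, and 0 columns were left unmapped. Nothing ties libraries to replicate animals, so p-values measure the spread of class differences between 4 libraries. Some members are not reported here.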

Additional observations from a re-analysis of the deposited data

How the results depend on the processing

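The lower share in treated libraries held its direction over all cells in every alternative run, while its size and the class-level values moved. With cells of 5000 to 15000 UMIs the difference from Ad-Null was -0.662 points in Ad-MEM40, -2.67 in Ad-mIFNB and -4.65 in Ad-COMBO. With members of at least 400 coding bases it was -0.511, -1.03 and -2.48. With Malat1 at most 2% it was -2.44, -1.84 and -2.47, and 10 of 10 class comparisons were lower. With 1000 genes and 5% mitochondrial it was -2.33, -2.60 and -3.85, as a mean over cells -1.94, -2.34 and -4.70, without mitochondrial transcripts -2.15, -2.38 and -3.94, and with ribosomal proteins outside the symbol rule -2.20, -2.35 and -4.03. Without copies and partners it was -2.08, -2.19 and -3.77, without interferon genes -2.05 in Ad-mIFNB and -3.67 in Ad-COMBO, and with doublets kept -2.02 in Ad-MEM40 and -3.73 in Ad-COMBO.

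Single classes reversed. In the 5000 to 15000 range cDC1-like cells were at 2.09 (Ad-MEM40) and 0.902 (Ad-mIFNB) and macrophage-like cells at 0.0365 (Ad-MEM40). With members of at least 400 bases Ad-MEM40 was at 0.0461 in cDC1-like, 0.144 in pDC-like and 0.196 in macrophage-like cells. Between classes, mature DC-like minus cDC1-like was -3.05 (depth range), -1.82 (Malat1, 3 libraries) and -2.99 (400 bases), and macrophage-like -3.76 (400 bases). The cDC2-like difference was 0.334 (1000 genes) and -0.335 (Malat1), over 3 libraries each. The pDC-like one was 0.315 (1000 genes, 3 libraries), 1.41 (depth range, 3 libraries), 0.0664 (stricter gate), 0.367 (Malat1, 1 library), 0.151 (no mitochondrial) and -0.719 (400 bases).

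Member medians in Ad-MEM40, Ad-mIFNB and Ad-COMBO were -0.00142, -0.228 and -0.472 in the depth range, -0.129, -0.122 and -0.198 with the Malat1 limit, and -0.155, -0.196 and -0.399 with the other denominator. They were -0.131 and -0.19 in the first 2 with 1000 genes, -0.0914 and -0.122 with classes weighted equally, and -0.108 in Ad-MEM40 with doublets. Members lower were 2, 3 and 21 in the depth range and 20, 21 and 60 at 1.2-fold, 5 in Ad-MEM40 with equal weights and 0 in Ad-COMBO with the Malat1 limit. All genes were not counted again in the depth range, with equal weights or with the Malat1 limit. In the depth range medians reversed to 0.22 (Ad-MEM40) and 0.0741 (Ad-mIFNB) in cDC1-like, 0.0264 in cDC2-like and 0.0567 in macrophage-like cells of Ad-MEM40. Longer members of Ad-MEM40 reversed to 0.0663 over all and 0.0366 in mature DC-like cells, and short and longer members of Ad-mIFNB cDC1-like cells to 0.0326 and 0.098. Longer members of Ad-MEM40 macrophage-like cells reversed to -0.0234 (1000 genes) and -0.0288 (Malat1).

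Without the library block, the paired design's counterpart, edgeR called 2 higher and 27 lower in mature DC-like, 0 higher in cDC2-like and 24 lower in pDC-like cells. Leaving out 1 library gave 2 to 5 higher in mature DC-like, 0 to 1 in macrophage-like, 1 to 14 higher and 0 to 2 lower in cDC2-like cells, and 0 to 2 higher and 5 to 34 lower in cycling cells. DESeq2 called 27 higher and 1 lower in cDC2-like and 9 higher in pDC-like cells. Library totals gave 3 higher in mature DC-like, 2 lower in cDC2-like, 13 higher and 27 lower in pDC-like cells, and 15 lower in mature DC-like than macrophage-like cells. No filter gave 2 higher in mature DC-like, 0 in macrophage-like and 1 in cycling cells, the stricter gate 2 higher and 2 lower in cDC2-like cells, and doublets 1 higher in cycling cells. The counts of this paragraph stand without the share of all genes called, so they compare settings only. The 136 named results of single members in class contrasts had 1312 alternatives. Of these, 1175 stayed on the same side of the adjusted p threshold, 104 lost and 33 gained the call. Called members changed direction in 0 alternatives, and direction was not checked for members not called. The Malat1, 400-base and library-total settings were chosen after seeing the data, and the causes were not tested. No paired analysis between treatments was possible because each had 1 library. Depth was lowest in Ad-MEM40 and cell number in Ad-COMBO, which limits both.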
